A study of Mus musculus with 3 samples.

Results

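The 9 genes described here, Peg10, Sgce, Ppp1r9a, Asb4, Tfpi2, Calcr, Casd1, Pon2 and Pon3, lie together on proximal mouse chromosome 6 and include the paternally expressed pair Peg10 and Sgce. Every probe set (the group of short probes that gives 1 signal for a transcript) was taken whose only gene symbol in the platform annotation was one of these 9, which gave 19 of the 45037 probe sets that were not array controls. A filter on dim signals, explained with the first test, left 13 of the 19, covering 7 of the 9 genes, and removed the only probe sets of Calcr and Pon3. RNA came from pools of whole embryos at 8.5 days post coitum (dpc), hybridised to 3 single-channel Affymetrix arrays. The normal array held 6 pooled C57Bl/6J litter mates of mixed sex. The mutant arrays, labelled as biological replicates, held 8 (array 1) and 6 (array 2) pooled Dnmt3l-/+ litter mates of mixed sex on a C57Bl/6J background, whose dams were Dnmt3l-/- and whose sires were wildtype. The mutant embryos thus carried a wildtype Dnmt3l allele from the sire, and what they lacked, per the series title, was maternal methylation. Each array is 1 pool, so embryos within a pool cannot be told apart, and the normal group has no replicate.

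Imprinted genes are transcribed from 1 parental allele because a germline methylation mark silences or redirects the other. In this cluster the mark is set in the oocyte, with the help of Dnmt3l, over the promoter region that Peg10 and Sgce share, and on the marked maternal allele both genes are silent. Peg10 derives from a retrotransposon and is needed for the placenta to form, and Sgce codes for epsilon-sarcoglycan, a membrane protein of the dystrophin-associated complex. The other members have been described as expressed from the maternal allele or biased towards it in some tissues, chiefly placenta or brain, and the description is least certain for Casd1. Which allele gave the signal was not measured by these arrays, and in bulk RNA a change in the number of cells of a type and a change in RNA per cell cannot be told apart.

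The deposited values are array signals on a linear scale, scaled so that every array had the same trimmed mean, and median signals were 130.0 to 143.6. Among markers of the embryo proper, none of the 12 cardiac and 11 neural genes measured lay below 31.92 on any array. That is the signal added before taking logs. Of the 12 somite and tailbud genes measured, 1 lay below it on the normal array and 1 on mutant array 2. Whether single genes were detected was not tested. Yolk sac endoderm genes, which mark tissue outside the embryo proper, gave summed signals of 24595 (normal), 131310 (mutant 1) and 137279 (mutant 2) over the 19 measured. Trophoblast genes, of which 10 of the 16 listed were measured, summed to 3238, 6631 and 5142 in the same order. The brightest of them were Cdx2 on the normal array (1252, then 1184 and 494) and Hand1 on both mutant arrays (750, then 2233 and 1710). Whether the embryo proper expresses the trophoblast genes too was not examined, so their sum is not a measure of trophoblast. Genes of the labyrinth and spongiotrophoblast, of which 3 of the 6 listed were measured, summed to 316, 82.7 and 170. On each array 1 of these 3 lay below 31.92, and only 1 was kept by the filter. Some of them also count in the trophoblast sum. The 10 genes listed for decidua and uterus, which are maternal tissues, summed to 4250, 2861 and 4822. Whether the embryo also expresses these genes was not examined, so the sum is not a measure of maternal tissue. Within that list the decidual hormone gene Prl8a2 read 1376, 91.2 and 111, and the matrix gene Lum read 444, 749 and 2530. The part of these tissues in the values below was not tested.

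Peg10 was measured by 1 probe set and was higher in both mutant pools, by very different amounts. Its signal was 129.5 in the normal pool, 808 on mutant array 1 and 259 on mutant array 2. Both mutant signals lay above the normal one, and that of array 1 was the higher of the pair. As plain signal ratios these are 6.24-fold and 2.00-fold. Log2 ratios here and below compare log2(signal + 31.92) with the normal array, which understates the change of dim genes. For Peg10 they were 2.38 and 0.85, with a mean of 1.62 (SE 0.63, 95% interval 0.05 to 3.18). The test was limma's moderated test over the 27022 probe sets left by the filter, which kept those whose average log2 level was at or above the 40th percentile, and the adjusted p was 0.359 (Benjamini-Hochberg). The gap between the mutant arrays, 1.53 on the log2 scale, was at least as large as that of 98.8% of kept probe sets. The size given for Peg10 therefore rests on which mutant array is read.

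Sgce was measured by a pair of probe sets that did not read alike. The first (1420688_a_at) read 643 on the normal array, 1266 on mutant array 1 and 1322 on mutant array 2. The mutant pools lay close together, well above the normal pool, at 1.97-fold and 2.06-fold. The log2 ratios were 0.94 and 1.00, with a mean of 0.97 (SE 0.22, 95% interval 0.42 to 1.53) and a limma adjusted p of 0.179. The second, dimmer probe set (1443518_at) read 228 on the normal array, 173 on mutant array 1 and 382 on mutant array 2. Here the normal pool lay between the mutant pools, and the mean log2 ratio was 0.17 (SE 0.47, limma adjusted p = 0.909). Which transcripts or exons each probe set reads was not analysed here. Across the 2 probe sets the mean log2 ratio of Sgce was 0.57.

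**Figure D1:**
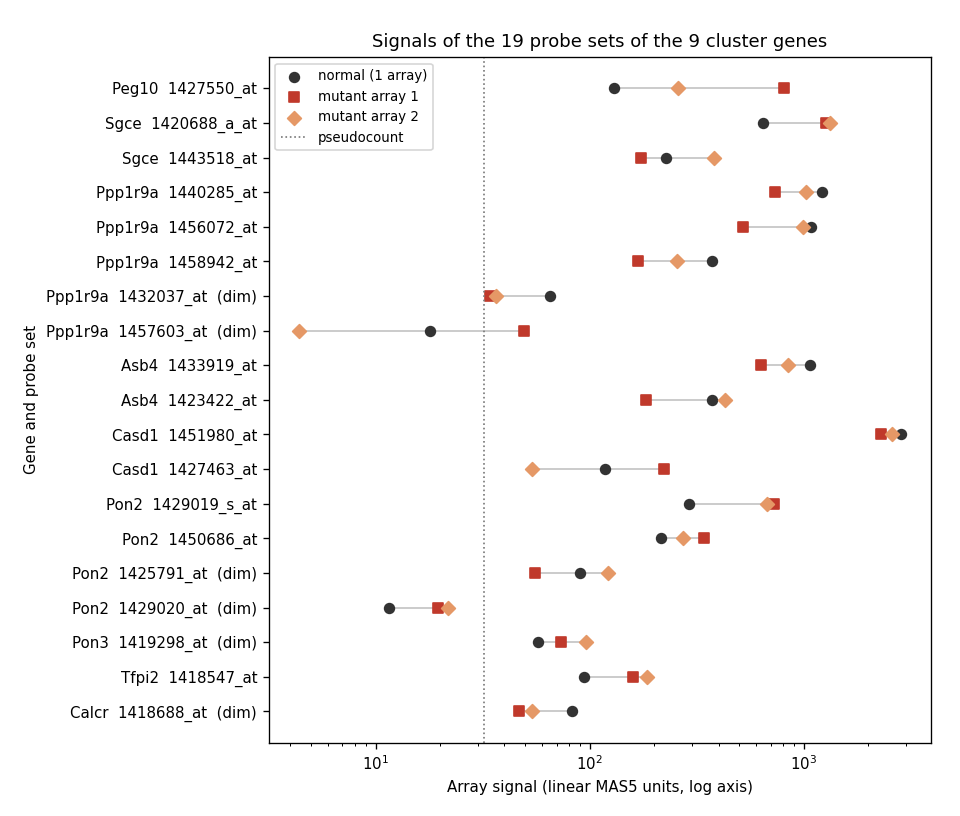
Signals of the 19 probe sets (rows, by gene) on the normal array (circles), mutant array 1 (squares) and mutant array 2 (diamonds), on a log axis in linear signal units. Grey bars span the lowest and highest of the 3 values, the dotted line marks the pseudocount of 31.92, and rows marked dim were removed by the filter. Peg10 and the first Sgce probe set have both mutant signals above the normal one, and the 3 kept Ppp1r9a probe sets have both below it.

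The imprinting mark of this cluster is methylation at CpG sites (a C followed by a G). The CpG content of the members' promoters was read from RefSeq sequence (GRCm38.p6). Windows of 250 bases before to 50 after a transcript start were at hand for 7 of the 9 members, 13 windows in all. None was at hand for Peg10 and Sgce, which are named only. The marked promoter region that they share is therefore not among the windows, and the counts below do not describe it. The motif CG, which reads the same on both strands and cannot overlap itself, occurs at least once in 94.6% of the 32851 windows in the table, with a median of 7 per window. Member windows held 2 to 48. The 4 windows shown belong to the genes listed as maternally expressed that had 2 or more kept probe sets, each at the start with the most CpG, and CG stands in capitals.
Ppp1r9a, chr6:4903061-4903360, plus strand: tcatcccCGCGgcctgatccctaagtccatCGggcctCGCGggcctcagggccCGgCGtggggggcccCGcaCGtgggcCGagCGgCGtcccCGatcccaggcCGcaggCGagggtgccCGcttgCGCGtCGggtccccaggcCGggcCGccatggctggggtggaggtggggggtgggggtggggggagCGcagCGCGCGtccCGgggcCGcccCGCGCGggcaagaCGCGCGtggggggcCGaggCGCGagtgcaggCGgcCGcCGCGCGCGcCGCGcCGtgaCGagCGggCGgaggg
Asb4, chr6:5390160-5390459, plus strand: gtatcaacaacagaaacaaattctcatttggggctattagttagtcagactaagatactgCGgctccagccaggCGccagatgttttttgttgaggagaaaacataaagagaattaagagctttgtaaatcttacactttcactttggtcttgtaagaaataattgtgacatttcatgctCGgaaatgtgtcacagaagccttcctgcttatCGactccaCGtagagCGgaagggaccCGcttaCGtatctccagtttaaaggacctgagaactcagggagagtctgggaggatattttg
Casd1, chr6:4600661-4600960, plus strand: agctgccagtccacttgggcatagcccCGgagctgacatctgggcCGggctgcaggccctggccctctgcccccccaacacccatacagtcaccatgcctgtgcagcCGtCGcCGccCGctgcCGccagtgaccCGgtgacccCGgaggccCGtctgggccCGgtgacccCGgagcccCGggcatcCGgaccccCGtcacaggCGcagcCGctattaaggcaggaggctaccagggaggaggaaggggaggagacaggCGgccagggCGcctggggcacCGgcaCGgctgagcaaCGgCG
Pon2, chr6:5298291-5298590, minus strand: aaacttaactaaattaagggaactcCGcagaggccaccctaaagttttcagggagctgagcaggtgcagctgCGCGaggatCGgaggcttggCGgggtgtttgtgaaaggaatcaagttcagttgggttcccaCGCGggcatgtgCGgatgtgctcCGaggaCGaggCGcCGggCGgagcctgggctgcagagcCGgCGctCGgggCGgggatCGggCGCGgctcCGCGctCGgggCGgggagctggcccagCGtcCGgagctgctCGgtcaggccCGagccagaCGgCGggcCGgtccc
The Ppp1r9a window holds 48 CpG, a number reached by 1.22% of all windows, while its other annotated start has 10. The Asb4 window holds 8, reached by 48.6%, and its other start has 6. The Casd1 window holds 23, reached by 21.5%, against 5 at its other start, and the Pon2 window holds 31, reached by 10.6%. A CpG count describes the sequence only, and methylation was not measured here.

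Ppp1r9a codes for neurabin, a neuronal protein that binds actin and protein phosphatase 1. It was the member with the most probe sets, 5, of which 3 were kept, and all 3 read lower in both mutant pools without passing the test. The brightest (1440285_at) read 1214 on the normal array, 733 on mutant array 1 and 1025 on mutant array 2, with log2 ratios of -0.70 and -0.24, a mean of -0.47 (SE 0.28) and a limma adjusted p of 0.538. The next (1456072_at) read 1082, 520 and 994, with a mean log2 ratio of -0.56. The last kept one (1458942_at) read 373, 168 and 255, with a mean of -0.76 (SE 0.35, limma adjusted p = 0.424). In all 3 the pool of mutant array 1 read lowest and the normal pool highest. Of the 2 dim probe sets, 1 was lower in both mutant arrays (65.1, 34.2 and 36.4) and the other scattered around the normal value (17.9, 49.5 and 4.39).

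Asb4, a substrate receptor of a ubiquitin ligase that is expressed in embryonic vessels and placenta, read much like Ppp1r9a. Its brighter probe set (1433919_at) read 1066 on the normal array, 630 on mutant array 1 and 845 on mutant array 2. Both mutant pools lay below the normal pool, with log2 ratios of -0.73 and -0.32, a mean of -0.53 (SE 0.28, 95% interval -1.22 to 0.16) and a limma adjusted p of 0.486. The other (1423422_at) read 371, 183 and 429, so mutant array 2 lay above the normal array and the mean was -0.35 (SE 0.49). Casd1, which codes for an enzyme that acetylates sialic acids, had a bright probe set (1451980_at) at 2844, 2294 and 2576. Its log2 ratios were -0.31 and -0.14, with a mean of -0.22 (SE 0.20, 95% interval -0.71 to 0.27, limma adjusted p = 0.678). A dimmer Casd1 probe set (1427463_at) read 118, 222 and 53.5, with opposite signs in the mutant arrays.

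Pon2, a paraoxonase of intracellular membranes, was higher in both mutant pools, unlike Ppp1r9a, Asb4 and Casd1. Its brightest probe set (1429019_s_at) read 291 on the normal array, 722 on mutant array 1 and 671 on mutant array 2. Both mutant pools lay at more than 2-fold the normal one, with log2 ratios of 1.22 and 1.12, a mean of 1.17 (SE 0.25, 95% interval 0.54 to 1.81) and a limma adjusted p of 0.162. A second kept probe set (1450686_at) read 214, 342 and 272, with a mean log2 ratio of 0.45 (SE 0.30, limma adjusted p = 0.579). The suffix s of the first marks probes shared by several transcripts, which may include those of another gene, and this was not examined. The mean of both kept probe sets was 0.81. Of the 2 dim ones, 1 read 89.6, 55.6 and 122 and the other 11.6, 19.6 and 21.9. Of the promoter windows shown above, the CpG-rich ones thus belong to genes that read lower (Ppp1r9a, Casd1) and higher (Pon2) in the mutant pools. The window of Asb4, which read lower, holds 8 CpG, near the median of 7 over all windows.

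Tfpi2, an inhibitor of serine proteases made in placenta, was also higher in both mutant pools. It read 93.6 on the normal array, 159 on mutant array 1 and 185 on mutant array 2, with log2 ratios of 0.60 and 0.79, a mean of 0.70 (SE 0.33, 95% interval -0.13 to 1.53) and a limma adjusted p of 0.439. Calcr, the calcitonin receptor, read 82.7, 46.6 and 53.5, lower in both mutant arrays. Pon3, another paraoxonase, read 57.4, 73.8 and 96.4, higher in both. The filter removed these last 2 genes, so they were not tested, and their plain means were 0.605 and 1.48 times the normal signal.

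Taken over the cluster, no member passed the test and the members fell on both sides of the normal array. Of the 13 kept probe sets limma called 0 at an adjusted p under 0.05, against 0.548% of kept probe sets called higher and 0.0296% called lower. At an unadjusted p under 0.05 there were 3 (Peg10, Sgce and Pon2, of which Peg10 was lost under 3 of the 8 other settings), all higher, where 6.7% of all kept probe sets were higher and 6.86% lower. Centring the arrays on their medians turned the array-wide numbers at that unadjusted p from 1811 higher and 1853 lower to 2185 and 1457. In direction alone, 5 of the 13 were higher in both mutant arrays (32.2% of all kept probe sets), 5 were lower in both (42.5%) and the remaining 3 had opposite signs. These shares by direction are near those of the array.

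With each gene represented by its brightest kept probe set, 4 of the 7 genes were higher in both mutant arrays (36.5% of 12913 genes) and 3 were lower in both (39.1%). Peg10 and Sgce were both higher. Of the 5 kept genes listed as maternally expressed, 3 were lower in both (Asb4, Ppp1r9a and Casd1) and 2 were higher in both (Pon2 and Tfpi2), with a median log2 ratio of -0.22 beside -0.02 over all genes. Pon2 was the only member with both log2 ratios at 1 or more, against 3.24% of all genes. Placed among all genes, 1.54% had a log2 ratio at least as high as that of Peg10, 3.09% as Pon2, 4.25% as Sgce and 7.51% as Tfpi2. On the other side 9.18% were at least as low as Asb4 and 11.4% as Ppp1r9a. Yolk sac endoderm genes were higher in both mutant arrays in 19 of 19 cases (median log2 ratio 2.68), and embryonic erythroid genes in 13 of 13 (median 1.54). Of the 5 trophoblast genes kept, 4 were higher in both (median 1.35). Limma called 1 of them higher, the homeobox gene Esx1 (2.25, adjusted p = 0.0498), where 0.728% of genes were called higher. No probe set passed when the filter or the variance trend of the test was left out, so the Esx1 call rests on both. Of 9 genes of decidua and uterus 2 were higher in both and 5 lower in both (median -0.28). Of 12 cardiac genes 10 were lower in both (median -0.83), and of 11 neural genes 10 (median -0.82). These tissue lists were chosen with earlier results of these data known, so their counts are not independent of them. The part of these shifts in the members' values was not tested.

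**Figure D2:**
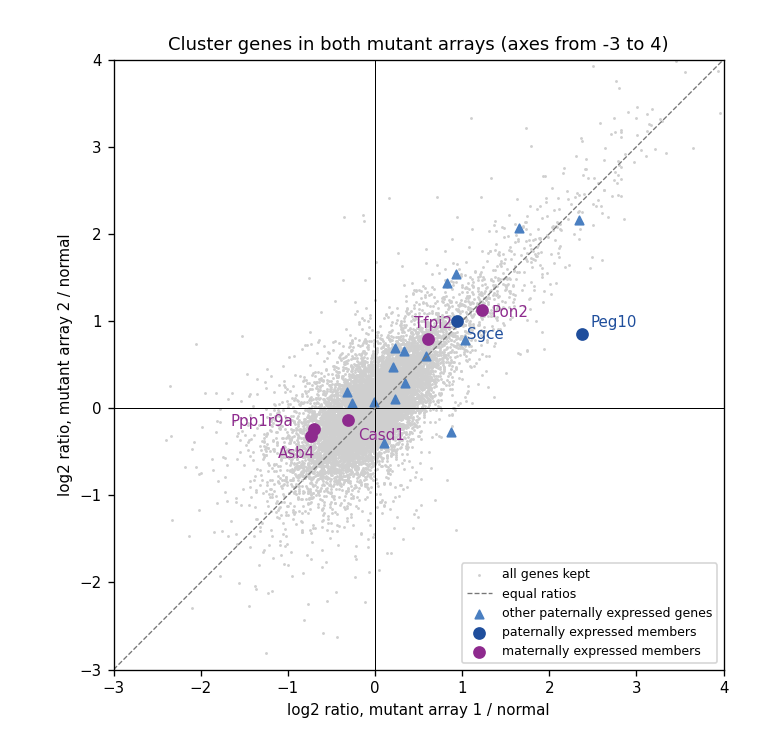
Log2 ratio to the normal array in mutant array 1 (horizontal) and mutant array 2 (vertical) for all 12913 genes kept (grey, those beyond the axes not drawn), the other genes listed as paternally expressed (triangles) and the 7 kept cluster genes (labelled). Sgce and Pon2 lie close to the dashed line of equal ratios, while Peg10 lies far to its right at 2.38 and 0.85.

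Along the chromosome other genes, not counted among the 9, lie between the members or on either side of them. They were read in the order of the GRCm38.p6 gene table. Of 15 such neighbours from Samd9l to Sdhaf3, all were measured and 9 were kept. Limma called 0 of the 9 (0.728% of genes were called higher and 0.031% lower), and 2 (Vps50 and Dync1i1) had an unadjusted p under 0.05, where 8.01% of genes were higher and 4.24% lower. In both mutant arrays 3 were higher and 2 lower, and the median log2 ratio was 0.13, with a range of -0.86 to 0.77. Vps50, a subunit of a vesicle tethering complex, read 468 in the normal pool against 765 and 882 in the mutants (log2 ratio 0.77, SE 0.25, limma adjusted p = 0.290). Dync1i1, a dynein chain gene beyond Asb4, read 231 in the normal pool against 125 and 103 in the mutants (log2 ratio -0.86, SE 0.33, limma adjusted p = 0.359). Gng11, a G protein gamma subunit gene, had -0.26 and Sdhaf3, an assembly factor of succinate dehydrogenase, had 0.13. The collagen gene Col1a2, next to Casd1 among the genes listed, read 1464 on the normal array, 1240 on mutant array 1 and 3142 on mutant array 2. By their brightest kept probe sets Sgce and Peg10, which neighbour each other, had higher mean ratios than any of these 9 genes. The mean over both kept Sgce probe sets, 0.57, lay below the 0.77 of Vps50. Whether the pair differs from these neighbours was not tested.

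**Figure D3:**
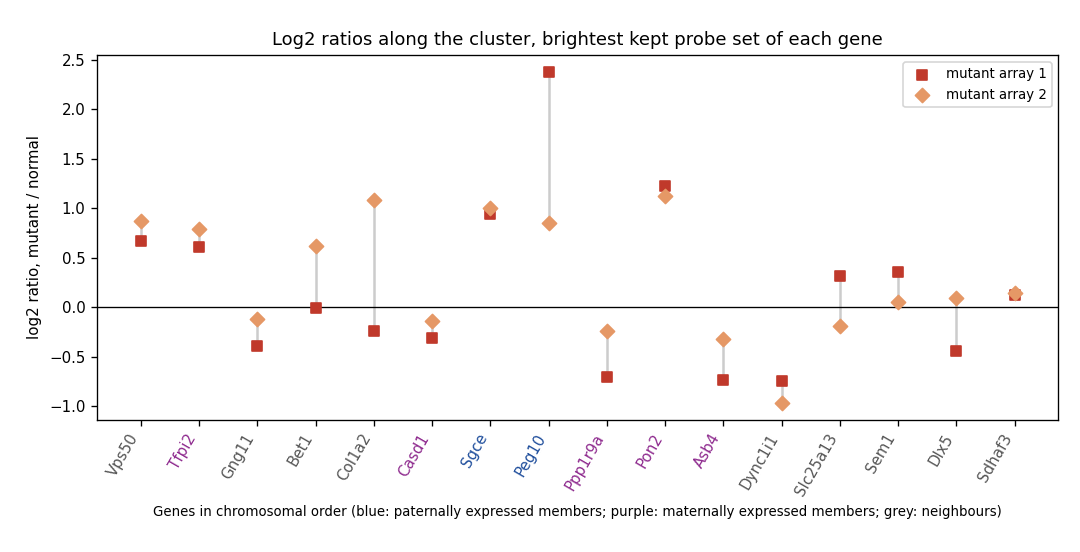
Log2 ratio to the normal array in mutant array 1 (squares) and mutant array 2 (diamonds) for the 16 cluster genes and neighbours with a kept probe set, in chromosomal order and not to scale. The grey bars join the 2 arrays. Each gene is shown by its brightest kept probe set. Peg10 and Sgce are above 0 in both arrays, and the genes on either side of the pair, Casd1 and Ppp1r9a, are below 0 in both. The other kept probe sets of Sgce and Casd1, not drawn, had opposite signs in the mutant arrays.

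Peg10 and Sgce were next set beside other genes listed as paternally expressed under a maternal mark elsewhere in the genome. Which transcripts their probe sets read was not examined, and at a locus such as Gnas they may include transcripts of both alleles. Of the 20 genes so listed, not all of which need be paternally expressed, 16 were kept. Of these, 11 were higher in both mutant arrays (36.5% of all genes), none lower in both (39.1%), and 5 of opposite signs. Their median log2 ratio was 0.40, beside -0.02 over all genes. In the order of mean log2 ratio over these 16 and the cluster pair, Peg10 stood at rank 3 and Sgce at rank 6 of 18. Each gene was ranked by its brightest kept probe set. On mutant array 1 alone Peg10 (2.38) lay above Sfmbt2 (2.34), the gene at rank 1. On mutant array 2 alone Peg10 (0.85) lay below Sgce (1.00), so its rank depends on the array read. Sfmbt2, a Polycomb-related gene expressed in extraembryonic tissue, rose from 325 to 1666 ± 149 (SD, n = 2) with a log2 ratio of 2.25 (limma adjusted p = 0.0352), and the zinc finger gene Plagl1 (1.86, limma adjusted p = 0.0408) passed too. These were the 2 called of the 16, where 0.728% of genes were called higher. Neither call held without the filter or without the variance trend of the test. Peg10 at 1.62 lay between Plagl1 and Impact (1.24), and its distance to either was smaller than its own SE of 0.63. Sgce at 0.97 lay between Zdbf2 (1.13) and Mcts2 (0.91), again within its SE of 0.22. With the mean of both kept Sgce probe sets, 0.57, Sgce lay below Mcts2. Mutant array 1 read higher than array 2 for Sfmbt2 and Peg10, and lower for Plagl1, Impact and Zdbf2.

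Relatives and partners of the members were listed to see whether they moved too. Of 10 genes derived from the gag gene of retrotransposons, as Peg10 is, 5 were measured and 4 kept, and limma called 0 with 1 at an unadjusted p under 0.05. Ldoc1, a small gag-derived gene of the X chromosome, read 293 in the normal pool against 721 and 772 in the mutants (log2 ratio 1.26, SE 0.25, limma adjusted p = 0.135). Rtl5 (0.17) and Rtl8c (-0.32) lay nearer 0. Of 13 genes of the sarcoglycan and dystroglycan complex, to which Sgce belongs, 7 were kept and limma called 0, also at an unadjusted p under 0.05, with a median log2 ratio of 0.02 and a range of -0.42 to 0.49. The dystrophin gene Dmd (0.49) and the syntrophin gene Sntb2 (-0.42) marked the ends of that range. Among 14 relatives and partners of the other members 12 were kept and limma called 0, with 2 at an unadjusted p under 0.05. Tfpi, the coagulation inhibitor related to Tfpi2, read 792 in the normal pool against 1487 and 1720 in the mutants (log2 ratio 0.99, SE 0.23, limma adjusted p = 0.180). Elob, elongin B, a partner of Asb-type ligases, had -0.51 (limma adjusted p = 0.263). The receptor activity modifying genes Ramp1 (-0.65) and Ramp3 (-0.38), whose products pair with Calcr, read lower in both arrays and did not pass. Ramp2 of the same family was brighter, at 1968 in the normal pool against 1956 and 2494 in the mutants. Its log2 ratios had opposite signs, with a mean of 0.16. Calcrl, a relative of Calcr, was higher in both arrays (0.61) and did not pass. With 4, 7 and 12 genes kept, 0 calls is near the gene-wide shares given for the neighbours, so these counts set none of the lists apart.

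**Figure D4:**
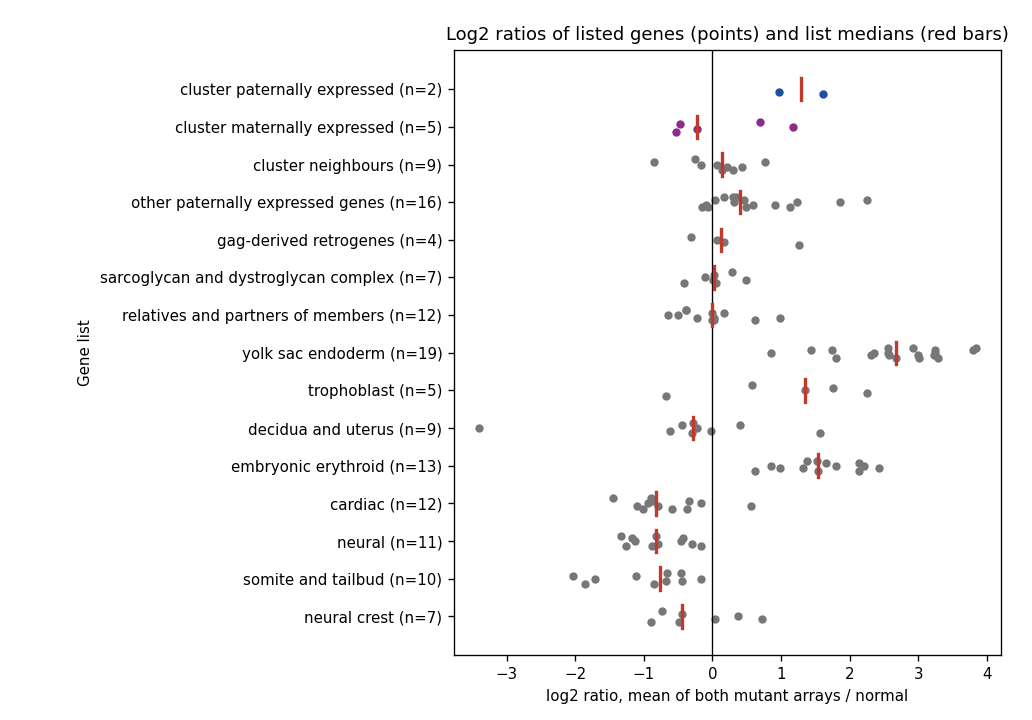
Mean log2 ratio of both mutant arrays to the normal array for each kept gene (points) of each list, with the list median as a red bar and the number of kept genes in brackets. The cluster's 5 genes listed as maternally expressed (purple) spread from -0.53 to 1.17, and yolk sac endoderm genes have a median of 2.68.

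The genes whose readings were most like those of Peg10 and Sgce were found by the distance between pairs of log2 ratios (mutant array 1, mutant array 2) over all 12913 genes, a likeness that rests on 3 arrays. Nearest to Peg10 were Slc38a5, an amino acid transporter gene (1.92 and 0.87, distance 0.46), Tlcd4 (1.94 and 0.68, distance 0.48) and Ikzf1, a transcription factor gene of blood cells (1.85 and 1.00, distance 0.55). None of these was as far above the normal array in mutant array 1 as Peg10 at 2.38. Sgce had closer companions, with Hcst (0.91 and 1.00), Dnajc22 (0.97 and 1.03) and Jade1 (0.92 and 0.98) each within a distance of 0.04. None of the 6 genes passed the test, with limma adjusted p from 0.142 (Jade1) to 0.379 (Tlcd4).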

How the data were processed

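The values the authors deposited are intensity values (linear MAS5 signals), and GCOS and MAS5 are named, unversioned, in the submitters' processing notes. Each array had a mean of 500.0 after trimming 2% at each end, as the values show. They name no genome build. Of 45101 probe sets, 64 were array controls. The platform annotation gave 1 symbol to 34945 of the rest, several to 932 and none to 9160. The median of the 3 arrays' 20th percentiles served as pseudocount.

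Limma (version 3.58.1, R 4.3.3; lmFit, eBayes with a variance trend, two-sided) was fitted to log2(signal + 31.92) of the 27022 kept probe sets, with Benjamini-Hochberg adjustment over all of them and a threshold of 0.05. It had 1 residual degree of freedom plus 4.52 prior ones, and takes the lone normal array to vary as the mutants do. All adjusted p-values and intervals come from it. Tested on simulated arrays, it made more false calls than that threshold allows, and the number of arrays limits its precision.

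Named genes were all members, those of the related lists that passed or up to 4 of each by the smaller log2 ratio, up to 2 of each tissue list, and the 3 nearest to Peg10 and to Sgce. Col1a2, Mcts2, Ramp2, Calcrl, Cdx2 and Hand1 were named after their values were seen. Cdk6 was dropped from the neighbours, since the gene table places it on chromosome 5. Members and lists were chosen with earlier results of these data known. Alternatives were other filters, pseudocounts and scalings, no trend, the mean of probe sets, and leaving out a mutant array.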

Additional observations from a re-analysis of the deposited data

How the results depend on the processing

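No member passed limma under the 8 other settings that gave a test (3 member probe sets had an unadjusted p under 0.05, or 2 with no filter or a stricter one, where Peg10 was at 0.071 and 0.052; without the variance trend Peg10 was at 0.067 and Tfpi2 at 0.045), and under these no member gene's brightest kept probe set changed the sign of its mean log2 ratio. Peg10 ranged from 1.46 (pseudocount 63.84) to 1.71 (pseudocount 15.96), and from 0.85 to 2.38 when a mutant array was left out, which leaves 1 array against 1 and no test. Sgce ranged from 0.94 to 1.05, from 0.94 to 1.00 with an array left out, and was 0.57 with the mean of its probe sets, because its second probe set read 0.17. The median of the genes listed as maternally expressed was -0.22, -0.15 with median centring, -0.35 with the stricter filter, which removed Tfpi2, -0.12 with the mean of probe sets, and -0.31 to -0.14 with an array left out. Array-wide calls, 148 higher and 8 lower, became 263 and 24 with median centring. They were 0 and 0 without the filter and 0 and 0 without the variance trend, where 2423 higher and 2451 lower, and 1641 and 1814, had an unadjusted p under 0.05. The cause was not tested. Scaling moved the median of all kept probe sets by at most 0.07 (log2). No paired analysis was possible because the normal group has 1 array and no replicate number.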
